A study of Mus musculus with 12 samples.

Results

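The regions described here were called as bound by STAT5 in wild-type mouse embryonic fibroblasts, beside but not on the regions called when STAT5A was overexpressed. Binding was read by ChIP-seq, in which DNA held by an antibody to the factor is sequenced. They are the wild-type regions that overlapped no region of either overexpression list by 1 bp or more and whose nearest region of either list lay 10 kb or less away, edge to edge. Of 13278 wild-type regions, 4236 (31.9%, 95% exact binomial interval 31.1 to 32.7%) met this rule. They are called flanking regions below. They were chosen by the presence of regions in the 3 lists and by the distances between them, so both are given as a description. Of the other wild-type regions, 5171 were overlapped in at least 1 overexpression list (38.9% of the wild-type list) and 3871 lay farther than 10 kb from both.

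The fibroblasts came from fetuses of 12.5 to 13.5 days, from intercrosses of Stat5+/- mice bred into the C57BL/6 background, and were used at passages 9 to 10. Wild-type cells carried their own STAT5, and overexpressing cells (STAT5A-Stat5-/-) lacked Stat5 and were made to express STAT5A. Both went without serum for 5 h before growth hormone (GH) was added at 1 µg/ml for 45 min, and STAT5 was precipitated with 1 antibody. The vector that drove STAT5A, and whether a line was a clone or a pool, are not given in the labels. Of 12 libraries, region lists of 3 were used: wild type (1 library) and overexpression replicates 1 and 2, the second titled a repeat. The labels attach the replicate 2 list to an unstimulated and a stimulated library of the repeat. It was taken as the stimulated one because GH is in the track name inside the file, and every replicate 2 value, and the choice of flanking regions, rests on that reading. The lists held 13278, 71561 and 71803 regions on build mm9. They give positions only, with no height, score or count, and depth is unknown. The cells' identity could therefore not be checked against marker genes, and genes and sequence at the regions were not analysed here.

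STAT5A and STAT5B are cytoplasmic transcription factors that are phosphorylated by Janus kinases when a cytokine or hormone receptor is engaged. They then pair, enter the nucleus and bind a short palindrome, and pairs bound side by side can act together as a tetramer. GH acts through this pathway on genes of growth and of its own feedback control in liver and other tissues. Binding sites of such a factor often lie in groups around a gene, so a region present in one genotype may have neighbours in the other without coinciding with them. Whether this holds for the regions described here was not tested.

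The distances that chose the flanking regions covered the whole 10 kb window, with more short than long ones. The median distance to the nearest overexpression region was 2575 bp, and the middle 50% of flanking regions lay between 897 and 5361 bp. Within 1 kb lay 1122 of 4236 (26.5%, interval 25.2 to 27.8%), against 170 between 9 and 10 kb. The number per kb fell to 661 in the second kb, 560 in the third and 384 in the fourth. Beyond the limit the decline went on without a step, with 182 wild-type regions between 10 and 11 kb and 80 between 19 and 20 kb. The limit of 10 kb therefore fell within a gradual tail. Distances to a nearest region are more often short than long even when positions are unrelated, and no such level was computed here, so the decline is a description of the lists.

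**Figure D1:**
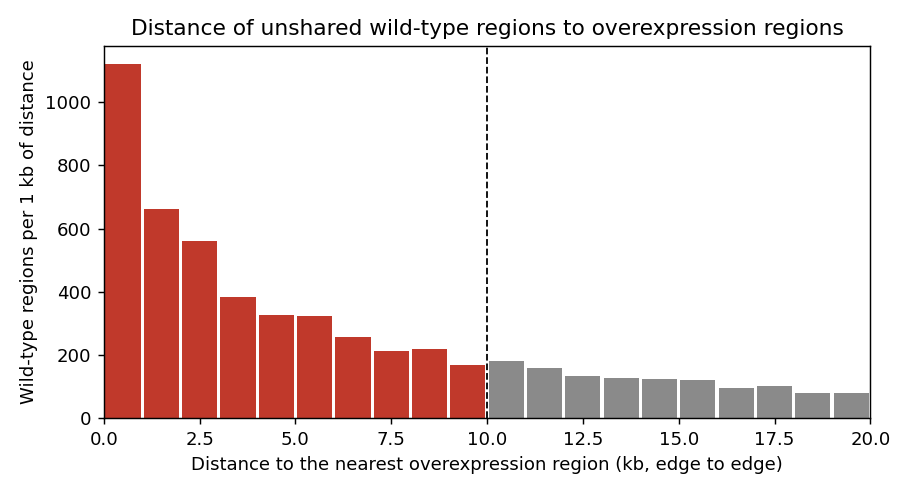
Number of wild-type regions without overlap (vertical axis) in each 1 kb of distance to the nearest overexpression region (horizontal axis, kb, edge to edge). Red bars are within the 10 kb limit (dashed line) and grey bars beyond it; counts fell from 1122 in the first kb to 170 in the last kb inside the limit, and 182 lay in the first kb outside it.

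A few flanking regions missed an overlap by little. Edges were 100 bp or less apart for 173 (4.08%) and 200 bp or less apart for 309 (7.29%). Measured from centre to centre, 11 flanking regions lay within 300 bp of an overexpression region, 185 (4.37%) within 500 bp and 807 (19.1%) within 1000 bp. Near misses by edge were thus a small part of the flanking regions. Median widths were 379 bp in the wild-type list and 398 and 378 bp in replicates 1 and 2. Regions that do not overlap have centres at least their average width apart. The rule therefore holds down the centre counts at 300 and 500 bp by itself.

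The 5 closest cases show what such near misses look like. The wild-type region at chr10:8487973-8488410 touched a site at chr10:8488411-8488901 that both replicates held, with 0 bp between them and 22 bp to the replicate 1 region. The region at chr9:52346753-52347031 lay 1 bp from replicate 1 and 224 bp from replicate 2, which shared the site at chr9:52347033-52347620. In the other 3 the adjoining site was in replicate 1 alone. The region at chr5:12191443-12191980 lay 1 bp from a site only 149 bp wide, and the nearest replicate 2 region was 2648 bp away. Those at chr15:79153673-79154121 and chr1:6271463-6271760 lay 1 and 2 bp from replicate 1, and 653 and 485 bp from replicate 2. In 2 of these 5 cases, on chromosomes 9 and 15, another wild-type region lay 21 and 311 bp away.

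At the other end, the flanking regions nearest to the limit lay at 9999 bp (chr13:90643023-90643560), 9995 bp (chr4:29076715-29077211) and 9991 bp (chr4:149060323-149060840). The wild-type regions just beyond it lay at 10002 bp (chr10:116671643-116672001), 10006 bp (chr19:10280153-10280460) and 10022 bp (chr1:133372623-133373120). The widths inside were 538, 497 and 518 bp and those outside 359, 308 and 498 bp. Within 100 kb, the 3 inside had 17, 11 and 7 overexpression regions and the 3 outside had 32, 13 and 29. The limit did not separate sparse from crowded surroundings in these 6.

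Replicates of the overexpressing cells were then compared around the flanking regions. Replicate 1 had a region within 10 kb of 3118 flanking regions (73.6%) and replicate 2 of 3539 (83.5%). Both did so for 2421 (57.2%, interval 55.6 to 58.6%), replicate 1 alone for 697 (16.5%) and replicate 2 alone for 1118 (26.4%). The share with both replicates nearby was 75.4% (interval 70.2 to 80.1%) among the 309 flanking regions at 200 bp or less. It was 38.8% (interval 36.0 to 41.7%) among the 1182 at more than 5 kb. The longer the distance to the nearer replicate, the less of the 10 kb window is left for the other, which lowers the second share by construction.

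The adjoining overexpression sites differed little from all overexpression sites in replicate support and width. When both replicates were merged into 105565 sites, the flanking regions had 4039 different sites as their nearest. Both replicates held 1067 of these (26.4%, interval 25.1 to 27.8%), against 28.7% of all merged sites. Sites in both replicates had a median width of 651 bp (interval 636 to 668 bp) next to flanking regions and 642 bp in all. Sites in 1 replicate had medians of 341 and 337 bp. Only overlapping regions were merged, so nearly adjoining ones can stay separate sites. Their part in these shares and widths was not tested. A wild-type region overlapped 257 of the 4039 sites (6.36%, interval 5.63 to 7.16%) and 4.91% of all merged sites. With 1 wild-type library, no test between samples can be made of these differences, and the intervals cover counting error only.

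Most adjoining sites were nearest to a single flanking region. The median distance from a flanking region to another wild-type region was 36437 bp, and for 36.2% it was 20 kb or less. Regions much farther apart cannot both lie within 10 kb of 1 site, which limits sharing. Of the 4039 sites, 3855 (95.4%) were nearest to 1 flanking region, 171 to 2 and 13 to 3. From the side of the flanking regions, 1676 (39.6%) had 1 merged overexpression site within 10 kb, 1042 (24.6%) had 2, and 450 (10.6%) had 5 or more, up to 14. Nearly adjoining regions that do not overlap can count as separate sites here. Overexpression sites stood on both sides within 10 kb for 1465 (34.6%). They stood only at lower coordinates for 1382 and only at higher coordinates for 1389. The rule treats both sides alike and takes no account of strand, so even sides are no finding about the flanking regions.

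The summits of flanking regions did not lean toward the adjoining site. The summit is the point of highest signal as the authors' list gives it. It lay on the side of the region's centre that faced the nearest site in 2136 of 4236 (50.4%, interval 48.9 to 51.9%). Among those at 200 bp or less the share was 51.5% (interval 45.7 to 57.2%), and among those at more than 5 kb it was 48.5% (interval 45.6 to 51.4%). At this number of regions a lean of a few percentage points in the closest class was not detectable. On the grid, summits lay on the lower-coordinate side of the centre in 60.6% of flanking, 60.5% of overlapped and 61.3% of distant regions. The facing share pools sites at lower and higher coordinates, so such a bias of the list would tend to cancel in it. The sides were not read apart.

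Since the rule used both replicates, each was also taken alone, and the wild-type regions it placed were looked up in the other. Replicate 1 overlapped 32.3% of all wild-type regions, and replicate 2 overlapped 29.9%. Of the 3677 wild-type regions that had no overlap in replicate 1 but a replicate 1 region within 10 kb, 559 (15.2%, interval 14.1 to 16.4%) were overlapped in replicate 2. Of the 5307 farther away, 318 (5.99%, interval 5.37 to 6.66%) were. In the reverse direction, replicate 1 overlapped 827 of 4366 (18.9%, interval 17.8 to 20.1%) and 379 of 4947 (7.66%, interval 6.94 to 8.44%). A position within 10 kb of one replicate thus went with overlap in the other 2.54 and 2.47 times as often as a distant position. The shares within 10 kb, 15.2% and 18.9%, were still below those of the whole wild-type list, which includes the regions overlapped in both replicates. Regions overlapped in the other replicate are by the rule not among the flanking regions. Overlap is also more likely where overexpression regions are dense, and no level given that density was computed, so the ratios are a description.

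The share overlapped in the other replicate fell with distance in both directions. It was 24.7% (interval 21.1 to 28.6%) at 500 bp or less from replicate 1, 15.6% at 1 to 2 kb and 11.0% at 5 to 10 kb. From replicate 2 the corresponding shares were 30.6% (interval 27.2 to 34.1%), 16.7% and 15.3%. Just past the limit, at 10 to 20 kb, they were 10.2% and 13.7%, within the counting intervals of the 5 to 10 kb class. Beyond 100 kb they were 0.908% (12 of 1321) and 2.30% (32 of 1391). The 2 lists were written in different forms, and their part in these shares was not tested.

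**Figure D2:**
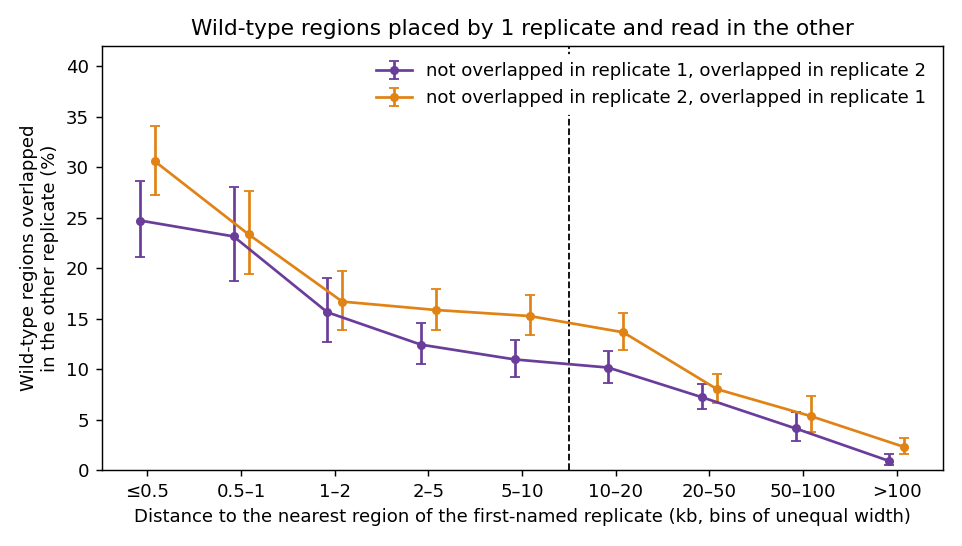
Percentage of wild-type regions overlapped in the other overexpression replicate (vertical axis) by distance to the nearest region of the replicate that did not overlap them (horizontal axis, kb, bins of unequal width). Points are shares with 95% exact binomial intervals and the dashed line is 10 kb; both curves fell from 24.7% and 30.6% at 0.5 kb or less to 0.908% and 2.30% beyond 100 kb.

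Around the flanking regions overexpression sites were numerous on a larger scale as well. Within 100 kb a flanking region had from 1 to 89 regions of both lists together, with a median of 19 and 50% of values between 12 and 28. The median was 9 in replicate 1 and 10 in replicate 2. Overlapped wild-type regions had a median of 24, including those that overlapped them, and distant ones a median of 4. The rule requires a neighbour, so the higher density beside flanking than beside distant regions is partly of its making.

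The flanking regions in the most crowded surroundings came from 3 places. On chromosome 14, the region at chr14:21682173-21682460 had 89 overexpression regions within 100 kb, 50 of replicate 1 and 39 of replicate 2. The nearest lay 313 bp away in replicate 2 and 2272 bp away in replicate 1. The next flanking region there, chr14:21667103-21667410, had 88 but stood 5714 bp from the closest. On chromosome 10, chr10:67646153-67646690 and chr10:67644773-67645001 lay 1151 bp apart and had 88 and 85 overexpression regions within 100 kb. The closest of these were 4171 and 3702 bp away. Farther down on chromosome 10, chr10:24247533-24247791, had 83, of which 57 were of replicate 1 and 26 of replicate 2. In 3 of these 5 the nearest overexpression region was more than 3 kb away. These counts are of listed regions, and some replicate 1 regions nearly adjoin. On chromosome 14, those at 30.716 to 30.985 and 30.996 to 31.385 kb from the centre met a single replicate 2 region, at 30.851 to 31.392 kb. The counts therefore need not equal numbers of separate stretches. How far this raised those of replicate 1 was not tested.

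**Figure D3:**
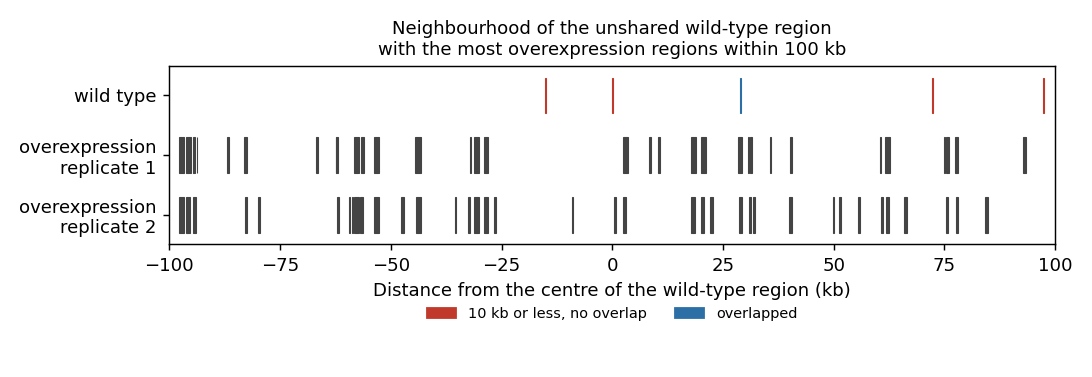
Regions of the 3 lists (rows) within 100 kb of the centre of the flanking region on chromosome 14 that had the most overexpression regions nearby; the horizontal axis is the distance from its centre in kb, and each mark is 1 region, drawn with a thin outline that widens it slightly. The wild-type row has 5 regions, 4 of them flanking (red) and 1 overlapped (blue), against 50 in replicate 1 and 39 in replicate 2. Some replicate 1 regions nearly adjoin and were counted singly.

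Wild-type regions were also spaced differently around the 3 classes. Another wild-type region lay within 10 kb of 1022 flanking regions (24.1%, interval 22.8 to 25.4%). The share was 33.5% (interval 32.2 to 34.8%) for overlapped and 9.53% (interval 8.63 to 10.5%) for distant wild-type regions. Median distances to the nearest wild-type region were 36437 bp for flanking, 25702 bp for overlapped and 72310 bp for distant regions. At 1 kb the shares were 5.62%, 16.2% and 2.56%, and at 100 kb they were 76.9%, 81.0% and 60.0%. Flanking regions thus stood between the other 2 classes at each limit from 1 to 100 kb. These shares are cumulative, so neighbours within 1 kb (238 of 4236 flanking and 840 of 5171 overlapped regions) count at every wider limit. The gap between flanking and overlapped regions was no wider at 10 or 100 kb than at 1 kb. Intermediate spacing was therefore not shown for each scale taken apart. Whether wild-type regions this close are parts of 1 stretch was not tested. The rule measured distances from wild-type to overexpression regions and not between wild-type regions. Whether spacing in the wild-type list depends on the density of overexpression regions was not tested, so it is given as a description.

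**Figure D4:**
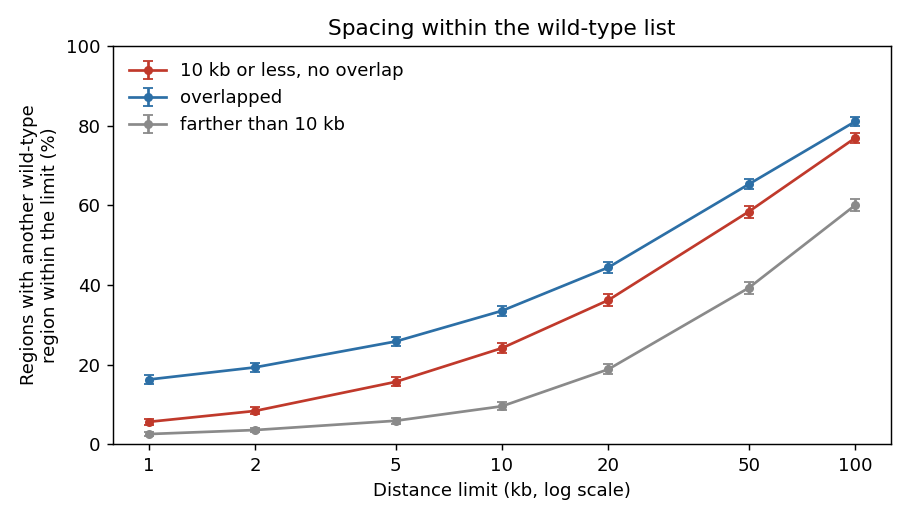
Percentage of wild-type regions with another wild-type region within a distance limit (vertical axis) against that limit (horizontal axis, kb, log scale), for flanking regions (red), overlapped regions (blue) and regions farther than 10 kb (grey). Bars are 95% exact binomial intervals. Shares are cumulative, and flanking regions lay between the others at every limit, with 24.1%, 33.5% and 9.53% at 10 kb.

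The nearest wild-type neighbours of flanking regions were mostly flanking or overlapped. Of the 1022 with a neighbour within 10 kb, the nearest one was overlapped in the overexpressing cells for 501 (49.0%), was itself flanking for 474 (46.4%) and was distant for 47 (4.60%). In the whole wild-type list 38.9% were overlapped, 31.9% flanking and 29.2% distant. A neighbour this close to a flanking region is itself near an overexpression region in most positions, so the rule largely sets the low share of distant ones. Flanking regions that followed each other directly, with gaps of 10 kb or less, formed 239 runs that held 500 of them. Of these runs, 218 had 2 members, 20 had 3 and 1 had 4. The run of 4, named after its values were seen, spanned chr10:103283923-103298110. Its members were 288, 348, 429 and 218 bp wide and lay 4832, 2972, 5182 and 8452 bp from replicate 1. The nearest replicate 2 region was 309170 to 323140 bp away from them. This stretch was sparse rather than crowded in the overexpressing cells, with 3 overexpression regions within 100 kb of each member.

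Widths of flanking regions resembled those of distant wild-type regions. The median width was 378 bp (interval 368 to 388 bp), the quartiles were 288 and 488 bp, and the range was 178 to 810 bp. Overlapped and distant regions each had a median of 388 bp. The wild-type list has regions of different form, however. In 11565 of them the edges lie on a 10 bp grid, as in replicate 1, and in the other 1713 they do not. Of the flanking regions 3576 (84.4%, interval 83.3 to 85.5%) were on the grid, against 92.9% of overlapped and 82.3% of distant regions.

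Within the grid, flanking and distant regions had the same median of 348 bp (interval 348 to 358 bp for each) and the same quartiles of 278 and 448 bp. Overlapped regions had a median of 368 bp (interval 368 to 378 bp) and quartiles of 289 and 478 bp. The difference was clearest among broad regions. Wider than 550 bp, a value chosen after the curves were seen, were 4.33% of flanking regions (155 of 3576, interval 3.69 to 5.05%), 4.05% of distant and 11.2% of overlapped regions (interval 10.3 to 12.1%). A wider region has more bases in which to meet another, so width bears on overlap by itself. Off the grid, the median was 511 bp in all 3 classes.

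**Figure D5:**
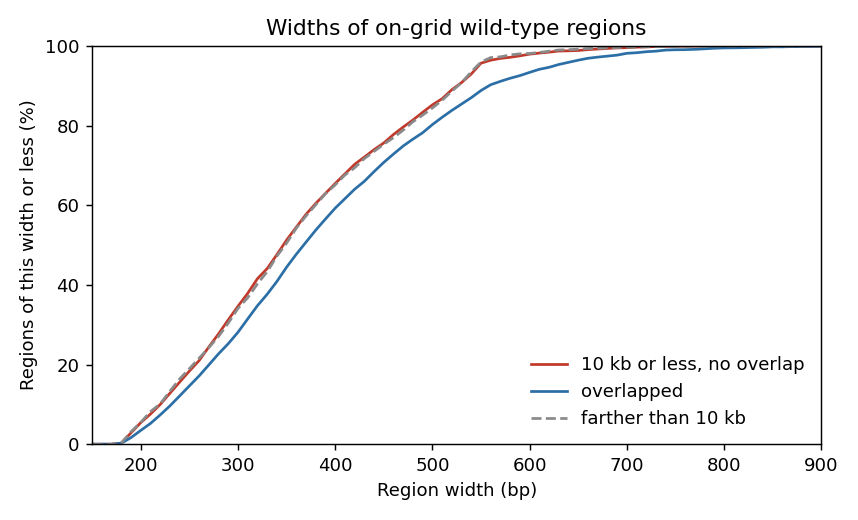
Percentage of on-grid wild-type regions of a given width or less (vertical axis) against width in bp (horizontal axis) for flanking (red), overlapped (blue) and distant regions (grey, dashed). The red and grey curves run together, with 95.7% and 95.9% at 550 bp, and the blue curve lies below them, with 88.8%.

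Width hardly varied with distance among flanking regions. On the grid the median was 338 bp (interval 318 to 358 bp) at 200 bp or less, 348 bp at 500 bp to 5 kb and 349 bp (interval 348 to 368 bp) at more than 5 kb. A wild-type neighbour within 10 kb was found for 102 of 309 (interval 27.8 to 38.6%) at 200 bp or less and for 236 of 1182 (interval 17.7 to 22.4%) at more than 5 kb. The share did not fall steadily between these classes, with 25.1% at 200 to 500 bp and 32.5% at 500 to 1000 bp. The on-grid share was 85.4% at 200 bp or less and 84.1% at more than 5 kb.

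The 5 widest flanking regions differed in their distance. The widest, chr10:102168386-102169195, was 810 bp wide and lay 3032 bp from replicate 2 and 15554 bp from replicate 1. The next, chr13:94234913-94235720, was 808 bp wide and lay 4217 bp from replicate 2 and 30582 bp from replicate 1. The region at chr5:18860668-18861429, 762 bp wide, lay 63 bp from replicate 1 and 210131 bp from replicate 2. Those at chr14:31833243-31834020 (778 bp) and chr4:135429813-135430570 (758 bp) had both replicates within 10 kb, the nearer at 405 and 2112 bp. For each of the 5, the adjoining site was held by 1 replicate only, and it was 175 to 528 bp wide, narrower than the wild-type region. Of all 4039 sites nearest to flanking regions, 2972 were held by 1 replicate only, with a median width of 341 bp. As these 5 were picked as the widest, a narrower neighbour follows largely from the choice.

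Flanking regions were found on all autosomes and on chromosome X, and the 1 wild-type region on chromosome Y was not flanking. They made up from 25.3% of wild-type regions on chromosome X (38 of 150) to 38.1% on chromosome 19 (118 of 310). Chromosome 10 held the most, 608, which is 36.4% (interval 34.1 to 38.7%) of its 1672 wild-type regions, against 31.3% (interval 30.4 to 32.1%) on all other chromosomes. It also held the most wild-type regions of any class together, with 1005 on chromosome 2 and 924 on chromosome 1 next. The high count on chromosome 10 is thus largely one of the whole wild-type list. Of all flanking regions 14.4% (interval 13.3 to 15.4%) were on chromosome 10, as were 11.2% (interval 10.4 to 12.1%) of overlapped and 12.5% (interval 11.5 to 13.6%) of distant regions. Chromosome 13 had a share as high as chromosome 10, 36.4% (251 of 690). Chromosome 7 had the lowest of the autosomes, 26.7% (169 of 633), and the highest share of overlapped regions, 48.2%.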

How the data were processed

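Positions (start, end and, for wild type and replicate 1, summit) of called regions on mm9 were used as deposited by the authors. Region names of replicate 2 begin with MACS, per the file headers and names. For the aligner, thresholds, controls and the caller of the other lists, nothing is stated in the labels or headers. All replicate 1 regions, 87.1% of wild-type and 1.95% of replicate 2 regions have edges on a 10 bp grid (tolerance 1 bp at the end), so the lists were made in different ways.

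Positions were treated as BED intervals, and printed starts are counted from 1. Distances are bases between edges. Merged sites join overexpression regions that overlap by 1 bp or more, so regions that nearly adjoin can stay separate sites. Intervals are 95% exact (Clopper-Pearson) for shares and binomial order-statistic intervals for medians. They cover counting error only. Wild type has 1 list, and regions of a list are not replicates, so no p-value is given. The labels do not say whether the overexpression replicates were separate cultures. Overlaps and distances were tested on simulated data and against bedtools 2.31.1. Analyses used scipy 1.17.1, pandas 2.3.3, numpy 2.4.6 and matplotlib 3.10.9 under Python 3.11.15.

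The members and measures were chosen with earlier results of these data known. Regions named are the 5 closest, the 5 widest and the 5 with the most overexpression regions within 100 kb, with 3 on each side of the limit. The shares taken with 1 replicate at a time, the summit direction, the merged sites and the runs were added after the lists were seen. Genes, transcription starts and the STAT palindrome were not analysed here, since the gene and sequence tables used are of GRCm38 and not of mm9.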

Additional observations from a re-analysis of the deposited data

How the results depend on the processing

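Of 35 alternative values, 17 stayed within the counting interval of the reported value and 18 did not. Why values moved was not tested, except that a wider limit or a stricter overlap must add regions. The share of wild-type regions that are flanking, 31.9%, was 30.9% on the grid, 23.0% with a limit of 5 kb, 41.0% with 20 kb, 45.5% when shared regions had to overlap by at least 50% of both, and 21.6% when only overexpression regions found in both replicates counted. It was 27.7% to 32.9% with 1 replicate left out, the lower value without replicate 2. The share within 1 kb, 26.5%, was 21.3% with sites of both replicates, 19.1% from centre to centre and 23.7% to 26.0% with 1 replicate left out. The share near both replicates, 57.2%, was 48.3% with 5 kb and 69.2% with 20 kb. The median width, 378 bp, was 348 bp on the grid and 378 to 388 bp with 1 replicate left out. The share with another wild-type region within 10 kb, 24.1%, was 22.4% without chromosome 10, 25.7% with 5 kb, 20.9% with 20 kb and 26.5% to 28.4% with 1 replicate left out. The share on chromosome 10, 14.4%, was 13.7% to 13.8% with 1 replicate left out. No alternative that needs mm9 genes or sequence was tried. No paired analysis was possible because the wild-type group has a single library and so only 1 replicate number in common with the overexpressing group. Depth is unknown and limits any reading of a missing region as missing binding.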

Other observations

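Summits of on-grid flanking regions lay on the lower-coordinate side of the centre in 60.6% (2167 of 3576, interval 59.0 to 62.2%), as did those of on-grid overlapped (60.5%) and distant regions (61.3%). Off the grid the share was 49.4% (326 of 660, interval 45.5 to 53.3%) in flanking regions. Summits within 10% of the width from an edge were found in 93 on-grid flanking regions (2.60%) and in 0 of 660 off-grid ones, which allows a share of up to 0.557% by the exact interval. Off-grid regions were flanking in 38.5% (660 of 1713) and on-grid regions in 30.9%, while 21.4% of off-grid and 41.5% of on-grid regions were overlapped. Among the off-grid regions a wild-type neighbour within 10 kb was found for 19.4% of flanking (128 of 660, interval 16.4 to 22.6%), 23.2% of overlapped (85 of 366, interval 19.0 to 27.9%) and 9.17% of distant regions (63 of 687, interval 7.12 to 11.6%).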
